A study of Mus musculus with 4 samples.

Results

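Lipogenesis and cholesterol synthesis were followed through 35 genes of the mouse liver transcriptome, of 25793 gene symbols in the deposited count tables. The genes were chosen by symbol, as the enzymes and regulators of fatty acid, triglyceride and sterol synthesis, and all 35 were listed. Sc4mol is the older symbol of Msmo1. RNA sequencing had been carried out on 4 libraries. Liver tumours 1 and 2 were labelled as taken from beta-2SP+/- ; SMAD3+/- mice, which carry 1 lost copy each of the gene for beta-2 spectrin, an adaptor of SMAD proteins, and of Smad3, a transcription factor of TGF-beta signalling. Of the normal livers, 1 was labelled with that same genotype and is called double heterozygous here, and 1 was labelled wild type. No age or further treatment was named in the labels, and nothing in them says whether the tumours came from separate animals, so p-values measure only the spread between these samples.

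Cytosolic acetyl-CoA is the common start of both pathways. Acetyl-CoA carboxylase and fatty acid synthase build saturated fatty acids, which desaturases and elongases modify before acyltransferases join them to glycerol and store them in droplets. The sterol branch runs through mevalonate, farnesyl pyrophosphate and squalene to cholesterol. The transcription factors encoded by Srebf1, Srebf2 and Mlxipl switch these enzymes on in liver in response to insulin, low sterol and glucose.

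Gene counts totalled 11049931 in tumour 1, 13295216 in tumour 2, 15950426 in the double heterozygous normal liver and 18448621 in the wild type normal liver. The submitters' short descriptions name T cells for the tumours and hepatocytes for the normal livers. Of 10 T cell markers, 8 stood at 0 counts in tumour 1 and 7 in tumour 2, among them Cd3d, Cd3e and Cd3g. Of 10 hepatocyte markers all 10 fell in the tumours, and in CPM (counts scaled to library size, with TMM factors) the list summed to 12.9 in tumour 1, 53.5 in tumour 2 and 210626 in normal liver. The normal tables shared counts: of 2632 genes averaging 1 to 5 counts, 56.8% were equal in both, against 29.3% expected from each gene's total if the libraries were independent. Their low counts thus differed by less than sampling noise, and they were counted as 1 sample, the rounded mean of both tables. Normal liver below means this averaged library, and where its tables differed the value of each is given.

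In the tumours, 7 of the 34 members that could be tested fell and 1 rose (edgeR quasi-likelihood test, Benjamini-Hochberg adjusted p under 0.05). Over all 14468 genes tested, 7.42% were called, with 5.19% lower and 2.23% higher; without a scaling factor these were 3.26% and 4.39%. Of the members, 18 were lower and 1 higher at an unadjusted p under 0.05, where 15.5% and 12.5% of all genes were. The median log2 fold change of the members was -2.31, and that of all genes 0.19. Together the members took 0.435% and 0.556% of gene counts in tumours 1 and 2, against 1.48% in the double heterozygous and 1.37% in the wild type normal liver. Single genes weighed heavily in these totals. Scd1 alone made up 53.6% of member counts in the double heterozygous and 50.8% in the wild type normal liver. Scd2 made up 43.1% and 37.9% of member counts in tumours 1 and 2.

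**Figure D1:**
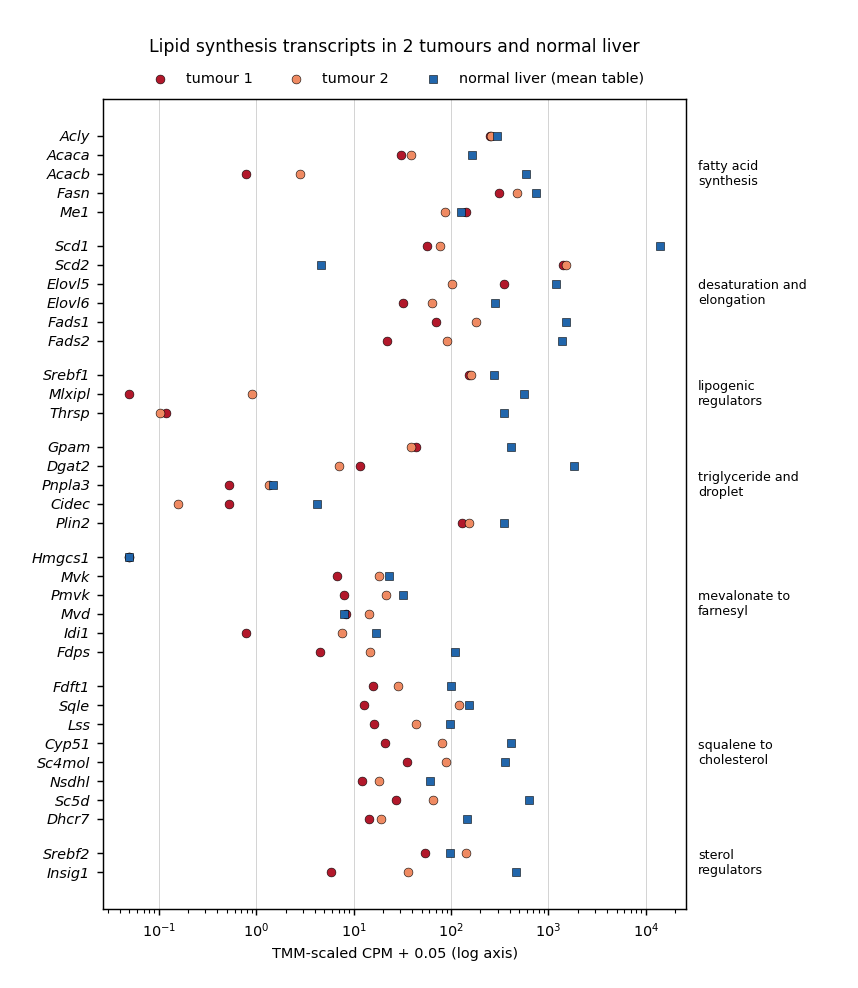
Level of each of the 35 genes in tumour 1, tumour 2 and the averaged normal liver, as TMM-scaled CPM plus 0.05 on a log axis, grouped by step. Scd2 is the member far to the right in the tumours and at 4.6 CPM in normal liver, while the tumour points of Scd1, Acacb, Mlxipl, Thrsp and Dgat2 lie far to the left of the normal liver point of the same gene.

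Stearoyl-CoA desaturase, which places the first double bond in stearate and palmitate, was represented by different isoform genes in the tumours and in normal liver. Scd1, the main isoform of liver, had 841 and 1429 counts in tumours 1 and 2, against 126227 in the double heterozygous and 127912 in the wild type normal liver. Both tumours were far below both normal livers. In the tumours it stood at a mean of 66.7 ± 14.2 CPM (SD, n = 2), with 13928 CPM in normal liver, and it fell by 7.71 on the log2 scale (SE 1.01, edgeR adjusted p = 0.0314).

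Scd2, an isoform known from brain and other non-hepatic tissues, had 20695 and 28002 counts in tumours 1 and 2, against 37 and 46 in the double heterozygous and wild type normal livers. The groups did not overlap here either, in the opposite direction. Scd2 was at 1449 ± 76.9 CPM (SD, n = 2) in the tumours and 4.6 CPM in normal liver, 314-fold higher (log2 fold change 8.29, SE 1.08, edgeR adjusted p = 0.0308). It was the only member called higher in this fit.

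Of the counts of both isoforms together, Scd2 made up 96.1% in tumour 1 (exact 95% interval 95.8 to 96.3) and 95.1% in tumour 2 (94.9 to 95.4). It made up 0.0293% (0.0206 to 0.0404) in the double heterozygous and 0.036% (0.0263 to 0.0479) in the wild type normal liver. Without molecular identifiers, these intervals, and those that follow, reflect counting error alone. Per kilobase of exon, Scd2 stood 22-fold and 17.5-fold above Scd1 in tumours 1 and 2, while Scd1 stood 3810-fold and 3106-fold above Scd2 in the double heterozygous and wild type normal livers. Among the 23034 genes with an annotated length, ranked by level per length within each library, Scd2 was at place 73 and 65 in tumours 1 and 2 and Scd1 at place 33 and 35 in the normal livers. Some sequence is common to the isoforms: 11.7% of the 31-base words of Scd1 and 7.3% of those of Scd2 occur in another gene, mostly another member of the Scd family. With genes above 10% left out, Scd2 still rose, and Scd1 was itself left out.

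**Figure D2:**
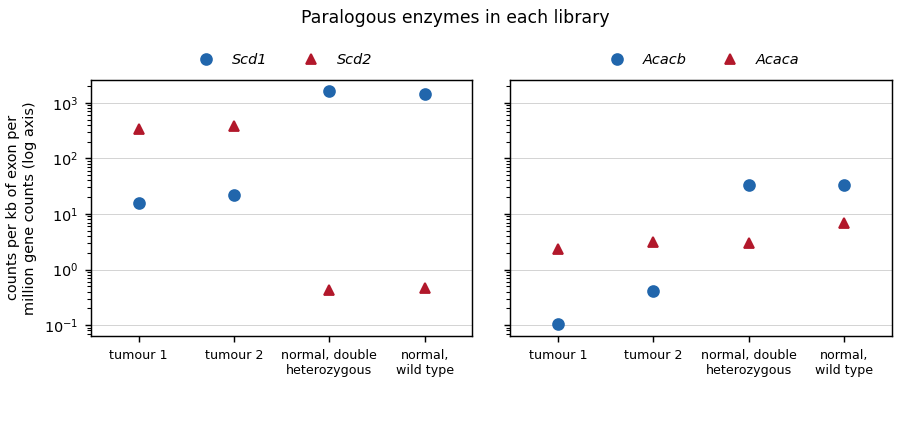
Counts per kilobase of exon, scaled to total gene counts, on a log axis, for the desaturase genes Scd1 and Scd2 (left) and the acetyl-CoA carboxylase genes Acacb and Acaca (right) in tumour 1, tumour 2 and both normal livers. Scd1 and Scd2 change places between the tumours and the normal livers, and Acacb lies above Acaca in the normal livers and below it in the tumours.

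Acetyl-CoA carboxylase makes malonyl-CoA, for synthesis by the cytosolic form and for the control of mitochondrial fatty acid uptake by the form at the mitochondrion. Acacb, the gene of the mitochondrial form, had 11 and 52 counts in tumours 1 and 2 and 4999 and 5838 in the double heterozygous and wild type normal livers. It fell by 8.38 on the log2 scale (SE 1.05, edgeR adjusted p = 0.0285), with log2 fold changes of -7.75 without tumour 1 and -9.63 without tumour 2. Acaca, the gene of the cytosolic form, had 449 and 719 counts in tumours 1 and 2, against 804 and 2158, with a log2 fold change of -2.24 (SE 0.53, adjusted p = 0.0845) that did not pass. The normal tables disagree by over 2-fold for Acaca, and 34.1% of its 31-base words are shared, most of them with the gene Gm5182. Per kilobase of exon, Acaca stood 23-fold and 7.8-fold above Acacb in tumours 1 and 2, whereas Acacb stood 11-fold and 4.8-fold above Acaca in the normal livers labelled double heterozygous and wild type.

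The other steps that build palmitate were not called. Acly, which cleaves citrate to cytosolic acetyl-CoA, had 3690 and 4836 counts in tumours 1 and 2, against 2615 and 2810 in the double heterozygous and wild type normal livers (log2 fold change -0.23, SE 0.57, adjusted p = 0.817). Fasn, fatty acid synthase, had 4561 and 8910 counts in the tumours, against 6536 and 7028 (log2 fold change -0.92, SE 0.66, adjusted p = 0.412). Raw counts of both genes overlapped or exceeded those of normal liver, and their sign depends on the scaling: with gene count totals alone the log2 fold changes were 1.15 for Acly and 0.46 for Fasn, both below the median of all genes on that scale (1.56). Me1, the malic enzyme that supplies NADPH, had 2090 and 1603 counts in the tumours against 711 and 1592, with 37.8% of its 31-base words shared, and was not called (log2 fold change -0.15, SE 0.6, adjusted p = 0.885). Its sign also turned under other settings.

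Elongases and polyunsaturated desaturases had lower values in each tumour than in normal liver. None of these 4 genes passed the test. Fads1 and Fads2, the delta-5 and delta-6 desaturases of long-chain polyunsaturated synthesis, had log2 fold changes of -3.57 (SE 0.84, adjusted p = 0.085) and -4.63 (SE 1.04, adjusted p = 0.0777). Fads2 had 326 and 1674 counts in tumours 1 and 2 against 11601 and 13603 in the double heterozygous and wild type normal livers. Elovl6, which extends palmitate to stearate, was at -2.54 (SE 0.65, adjusted p = 0.0964). Elovl5, an elongase of polyunsaturated fatty acids, was unequal between the tumours, with 350 CPM in tumour 1, 103 CPM in tumour 2 and 1184 CPM in normal liver (log2 fold change -2.39, SE 0.92, adjusted p = 0.188). Fads1, Fads2 and Elovl6 were called lower by DESeq2, which called 9.3% of all genes lower.

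Of the lipogenic regulators 2 of 3 fell, where 5.19% of all genes tested were called lower. Thrsp, the Spot 14 protein that accompanies lipogenesis, had 1 count in each tumour, against 3014 and 3355 in the double heterozygous and wild type normal livers. It fell by 12.31 on the log2 scale (SE 0.75, edgeR adjusted p = 0.0182). With so few tumour counts the ratio of normal liver to the pooled tumours was 5841, with an exact 95% counting interval of 1616 to 48255. Mlxipl, which encodes the glucose-responsive factor ChREBP, had 0 and 16 counts in tumours 1 and 2, against 4474 and 5843. It fell by 10.28 on the log2 scale (SE 1.79, edgeR adjusted p = 0.0492), a call that was lost against the double heterozygous normal table alone (adjusted p = 0.0524), without a scaling factor (0.0574) and by DESeq2 (0.0569). The size of the difference rests on few counts: the log2 fold change was -9.37 without tumour 1 and -15.73 without tumour 2, the second set by a tumour at 0 counts and no measure of a fold.

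Srebf1, whose product drives lipogenic genes downstream of insulin, had similar raw counts in every library, 2293 and 2977 in tumours 1 and 2, against 2352 and 2644 in the double heterozygous and wild type normal livers. On the scaled level it was at 157 ± 3.75 CPM (SD, n = 2) in the tumours and 274 CPM in normal liver, with a log2 fold change of -0.80 (SE 0.54, adjusted p = 0.384). Its sign turned with gene count totals alone (0.57). Reads do not separate the transcripts that start at its alternative promoters in these gene-level counts.

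Of the 5 triglyceride and droplet members tested, 2 fell, beside the 5.19% of all genes tested that were called lower. Dgat2, the acyltransferase of the last step, had 173 and 131 counts in tumours 1 and 2, against 16357 and 17162 in the double heterozygous and wild type normal livers (log2 fold change -7.62, SE 0.80, edgeR adjusted p = 0.0228). Gpam, the mitochondrial acyltransferase of the first step, had 650 and 722 counts against 3473 and 4061, and fell to 41.3 ± 3.56 CPM (SD, n = 2) in the tumours against 413 CPM in normal liver (log2 fold change -3.32, SE 0.53, adjusted p = 0.0434). The Gpam call was lost without a scaling factor (adjusted p = 0.0812). Both tumours lay below both normal livers for each gene.

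The droplet members Plin2, Cidec and Pnpla3 were not called. Plin2, the main coat protein of small droplets, had 1925 and 2839 counts in tumours 1 and 2, against 3014 and 3350 (log2 fold change -1.31, SE 0.55, adjusted p = 0.211). Per kilobase of exon it stood 9.77-fold and 19-fold above Dgat2 in tumours 1 and 2, while in the double heterozygous and wild type normal livers Dgat2 stood 6.18-fold and 5.84-fold above Plin2. Cidec, which promotes droplet fusion, and Pnpla3, a droplet lipase and acyltransferase, were near the limit of these depths. Cidec had 7 and 2 counts in the tumours against 36 and 40 (adjusted p = 0.216), and Pnpla3 had 7 and 24 against 13 and 13 (adjusted p = 0.81).

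**Figure D3:**
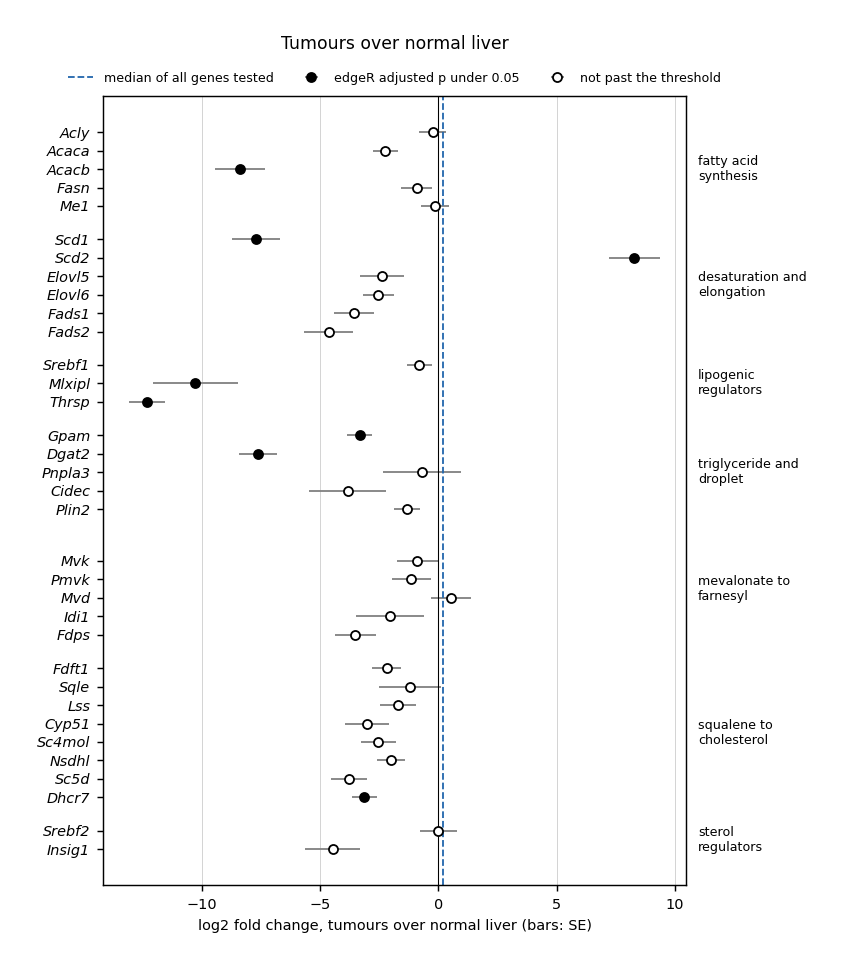
Log2 fold change of the tumours over normal liver with its SE for the 34 tested members, grouped by step; filled points passed the edgeR test at an adjusted p under 0.05, open points did not, and the dashed line is the median of all genes tested (0.19). Of the filled points 7 are negative and Scd2 is positive.

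In the sterol branch 1 of 15 tested members fell, a share near the 5.19% of all genes tested. The other 14 were not called, and Hmgcs1 could not be tested. Dhcr7, the reductase of the last step to cholesterol, had 215 and 353 counts in tumours 1 and 2, against 1319 and 1362 in the double heterozygous and wild type normal livers, with a log2 fold change of -3.13 (SE 0.54) and an edgeR adjusted p of 0.0486. The call was lost with upper quartile scaling (adjusted p = 0.0521) and without a scaling factor (0.106). The median log2 fold change of the 15 was -2.03, and 8 were lower at an unadjusted p under 0.05, as were 15.5% of all genes. Hmgcs1, the synthase before mevalonate, is listed at 0 counts in all 4 libraries.

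Between mevalonate and farnesyl pyrophosphate the counts were low. The kinases Mvk and Pmvk had 99 and 341, and 117 and 402, counts in tumours 1 and 2, against 198 and 221, and 289 and 304, in the double heterozygous and wild type normal livers. For the decarboxylase Mvd these were 124 and 268 against 69 and 76, and its log2 fold change of 0.53 (SE 0.85, adjusted p = 0.714) was the only one above 0 in the branch. The isomerase gene Idi1 had 11 and 140 counts in the tumours, with 77 and 231 in the double heterozygous and wild type normal livers. Fdps, farnesyl pyrophosphate synthase, had 66 and 276 against 197 and 1804. Both genes share about 30% or more of their 31-base words with pseudogene-like copies (30.0% and 33.7%), and their normal tables differ by over 2-fold, so their fold changes of -2.03 (SE 1.44) and -3.51 (SE 0.87) are uncertain; neither passed.

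From squalene onward all 8 genes had negative log2 fold changes, from -1.19 to -3.79, and Dhcr7 alone passed. Sqle, the epoxidase that limits flux after mevalonate, had 189 and 2268 counts in tumours 1 and 2, against 1369 and 1430 in the double heterozygous and wild type normal livers. The tumours lay on opposite sides of normal liver in raw counts, and the log2 fold change was -1.19 (SE 1.30, adjusted p = 0.582). Cyp51, the lanosterol demethylase, had 308 and 1504 counts against 3684 and 3790 (log2 fold change -3.01, SE 0.93, adjusted p = 0.134). Sc5d, the sterol desaturase, had 402 and 1207 against 5497 and 6073, the lowest log2 fold change of these 8 (-3.79, SE 0.76, adjusted p = 0.0623). Sc4mol, Nsdhl, Lss and Fdft1, which act between farnesyl pyrophosphate and the later sterols, had log2 fold changes of -2.54, -2.01, -1.71 and -2.18 with adjusted p from 0.118 to 0.23. Fdft1 shares 31.6% of its 31-base words with other genes.

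The sterol regulators differed from each other. Srebf2, whose product is the main activator of the sterol enzymes, had 809 and 2657 counts in tumours 1 and 2, against 849 and 952 in the double heterozygous and wild type normal livers. Its scaled level was 98.6 ± 62.3 CPM (SD, n = 2) in the tumours and 98.6 CPM in normal liver, a log2 fold change of -0.00 (SE 0.77, adjusted p = 0.999). Insig1, which holds the SREBP proteins in the endoplasmic reticulum and is itself an SREBP target, had 87 and 673 counts against 3719 and 4773 (log2 fold change -4.47, SE 1.16, adjusted p = 0.1). Both tumours lay below both normal livers for Insig1. It did not pass this test, and DESeq2 called it lower.

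The tumours were unequal in the sterol branch. Of the 14 sterol members with at least 10 CPM in either tumour, 14 were lower in tumour 1 than in tumour 2, and 10 were over 2-fold lower. Among all 9626 such genes, 49.7% were lower in tumour 1 and 15.8% over 2-fold lower. The median log2 ratio of tumour 1 over tumour 2 was -1.40 for these sterol members, -0.35 for the 11 fatty acid members, 0.18 for the 3 triglyceride members and 0.01 for all genes. This compares 1 library with 1 and has no replicate check. With gene count totals in place of TMM the counts were 14 and 10 of 14, and without members of shared sequence 12 and 9 of 12.

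Sqle spread most, with 12.7 CPM in tumour 1 and 122 CPM in tumour 2, a ratio of tumour 2 to tumour 1 of 9.56 (exact 95% counting interval 8.24 to 11.2). Insig1 was at 5.86 and 36.1 CPM (ratio 6.16, interval 4.92 to 7.8), Cyp51 at 20.7 and 80.7 CPM (3.89, interval 3.44 to 4.41) and Srebf2 at 54.5 and 143 CPM (2.62, interval 2.42 to 2.83). Nsdhl and Dhcr7 lay closest together among the squalene-to-cholesterol genes, at ratios of 1.5 (1.25 to 1.81) and 1.31 (1.1 to 1.56). Idi1 had the ratio 10.1 from 11 and 140 counts (5.5 to 20.8), below 10 CPM in both tumours. In the fatty acid branch Fads2 was also higher in tumour 2 (ratio 4.09), while Elovl5 was lower there (0.295). Scd2, Srebf1 and Acly were close in both tumours, at log2 ratios of tumour 1 over tumour 2 of -0.11, -0.05 and -0.06. Marker sums of other cells also differed between the tumours. The 8 stellate cell and fibroblast markers summed to 4.78 and 693 CPM in tumours 1 and 2, against 225 CPM in normal liver. In raw counts Col1a1, Col1a2, Col3a1, Pdgfrb and Des were higher in tumour 2 than in either normal liver. Lrat, Reln and Dcn were lower. The 6 Kupffer cell and macrophage markers summed to 54.6 and 5.74 CPM, against 144 CPM. Of these, Lyz2 had 644 and 19 counts in tumours 1 and 2, and Emr1 and Csf1r were also lower in tumour 2. Cd68 was higher there (30 and 65 counts), and Clec4f and Vsig4 had 0 counts in both tumours. The part of these cells in the result was not tested.

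**Figure D4:**
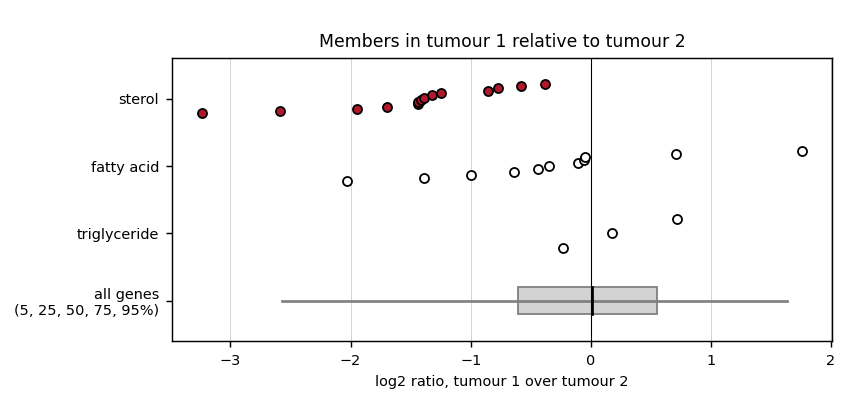
Log2 ratio of tumour 1 over tumour 2 for the members with at least 10 CPM in either tumour (14 sterol, 11 fatty acid, 3 triglyceride), each point 1 gene, above the 5th, 25th, 50th, 75th and 95th percentiles of all 9626 such genes. Every sterol point lies left of 0, with a median of -1.40, and the median of all genes is 0.01.

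Sequence before the gene starts was described next, and its bearing on the difference between the tumours was not tested. RefSeq windows (GRCm38.p6, used for sequence only since the counts were made on another build) were at hand for 28 of the 35 members. The letters CCAAT, the box bound by NF-Y, a partner of SREBP on many of its target promoters, were sought on both strands in the 250 bases before each annotated start. They occurred for 13 of 13 sterol members, 7 of 11 fatty acid members and 3 of 4 triglyceride members, against 37.5% of 27025 genes with a window and 40.7% of 9518 genes both tested here and with a window. A gene with several starts had several windows, and such a match is a description of letters, not of a bound site. These 13 sterol members include Hmgcs1, at 0 counts in every library, and Idi1, below 10 CPM in both tumours. Sqle, Fdps and Fdft1 had no window. The E-box CACGTG, to which ChREBP and SREBP-1 can bind, occurred for 5 of 28 members, against 6.86% of genes and 9.63% of those also tested. The sterol regulatory element TCACNCCAC occurred for 2 of 28 (Mlxipl and Hmgcs1), against 1.22% and 1.3%. The other 6 motifs searched are given with the processing.

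The windows of some members are shown so that these letters can be read in place, 5′ to 3′ on the gene's strand. CCAAT (or its complement ATTGG) and CACGTG are in capitals. Mvk (chr5:114444019-114444268, plus strand), with 5 CCAAT matches, Insig1 (chr5:28071162-28071411, plus strand) and Cyp51 (chr5:4104698-4104947, minus strand) stand for the sterol genes that were lower in tumour 1. Thrsp (chr7:97417551-97417800, minus strand) and Gpam (chr19:55127239-55127488, minus strand, the first of its 2 windows) were called lower in the tumours. Mlxipl (chr5:135089640-135089889, plus strand, the outer of its 2 windows) was called lower as well. The sets overlap: in CPM, Mvk, Insig1 and Cyp51 were also below normal liver in both tumours. Mlxipl was lower in tumour 1 than in tumour 2 too, at 0 and 16 counts. The windows of Gpam and Mlxipl not shown hold no CCAAT.
Mvk: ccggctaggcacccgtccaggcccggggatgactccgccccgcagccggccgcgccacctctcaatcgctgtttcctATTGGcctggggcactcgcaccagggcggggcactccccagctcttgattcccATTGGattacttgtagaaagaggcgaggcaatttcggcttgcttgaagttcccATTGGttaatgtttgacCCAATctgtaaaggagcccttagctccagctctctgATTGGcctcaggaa
Insig1: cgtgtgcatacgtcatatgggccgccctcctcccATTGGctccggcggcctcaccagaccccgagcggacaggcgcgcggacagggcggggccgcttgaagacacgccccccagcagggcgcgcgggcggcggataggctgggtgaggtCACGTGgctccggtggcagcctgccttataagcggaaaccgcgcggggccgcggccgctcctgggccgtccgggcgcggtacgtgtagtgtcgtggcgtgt
Cyp51: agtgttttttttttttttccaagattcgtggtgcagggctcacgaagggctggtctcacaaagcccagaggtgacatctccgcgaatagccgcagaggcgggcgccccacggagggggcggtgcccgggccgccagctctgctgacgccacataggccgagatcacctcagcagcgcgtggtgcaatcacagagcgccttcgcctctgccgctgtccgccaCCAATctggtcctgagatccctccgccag
Thrsp: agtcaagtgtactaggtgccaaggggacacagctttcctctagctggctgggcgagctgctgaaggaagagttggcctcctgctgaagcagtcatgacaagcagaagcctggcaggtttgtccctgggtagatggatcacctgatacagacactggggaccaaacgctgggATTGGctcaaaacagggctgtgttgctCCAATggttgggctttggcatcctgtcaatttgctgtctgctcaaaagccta
Gpam: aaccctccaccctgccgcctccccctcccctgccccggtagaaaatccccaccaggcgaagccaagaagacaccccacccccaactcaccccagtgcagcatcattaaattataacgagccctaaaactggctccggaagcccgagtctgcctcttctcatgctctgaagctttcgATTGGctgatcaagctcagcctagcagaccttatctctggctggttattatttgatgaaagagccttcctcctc
Mlxipl: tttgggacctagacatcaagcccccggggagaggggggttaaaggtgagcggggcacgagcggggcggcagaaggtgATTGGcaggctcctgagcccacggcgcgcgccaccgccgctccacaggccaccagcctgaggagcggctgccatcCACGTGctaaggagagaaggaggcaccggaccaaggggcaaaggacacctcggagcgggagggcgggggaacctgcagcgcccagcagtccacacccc

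Most but not all of these genes had close values in the normal livers. Of 30 members with at least 10 CPM in either normal table, 27 were within 2-fold, where 3.48% of 8294 genes were over 2-fold lower and 0.977% over 2-fold higher in the double heterozygous table. The 3 exceptions, Acaca, Idi1 and Fdps, were lower in the double heterozygous table, a larger share of the members than the 3.48% of all genes. Fdps differed most, with 197 and 1804 counts in the double heterozygous and wild type tables (log2 ratio -2.91). All 3 share over 10% of their 31-base words with other genes. The 24 members without shared sequence had log2 ratios of the double heterozygous over the wild type table between -0.11 and 0.24. Because these tables share counts, this does not show whether the genotype leaves lipid synthesis genes unchanged.

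Other genes of the same pathways were counted from lists of related enzymes and transporters. Of 47 tested fatty acid, triglyceride and droplet genes outside the 35, 12 fell and 1 rose, where 5.19% and 2.23% of all genes tested did. The gene that rose was Elovl7, an elongase (log2 fold change 5.81, SE 0.81, edgeR adjusted p = 0.0344). The lower ones included Elovl2, an elongase of very long polyunsaturated fatty acids, with 1 and 2 counts in tumours 1 and 2 against 14279 and 14619 in the double heterozygous and wild type normal livers. Elovl3 had 0 counts in both tumours and was at least 555-fold lower, against a floor of 3 counts per library. The fatty acid binding protein gene Fabp1 (-13.02), the droplet coat genes Plin5 (-9.68) and Plin4 (-6.56), the monoglyceride lipase gene Mgll (-9.63), Mttp (-8.87), which loads lipoproteins, and the phosphatidate phosphatase gene Lpin1 (-7.33) fell as well, with adjusted p from 0.0182 to 0.0259. The list median was -1.79.

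Of 30 tested sterol genes outside the 35, 6 fell and 1 rose, against the same 5.19% and 2.23% of all genes, with a list median log2 fold change of -2.83. Those that fell were Lcat (-10.89), which esterifies plasma cholesterol, the biliary sterol transporter pair Abcg5 (-10.90) and Abcg8 (-11.91), the exporter Abca1 (-4.68) and the synthesis enzymes Tm7sf2 (-5.73) and Ebp (-3.54). Soat1, which esterifies cholesterol in most cells, rose: it had 1819 and 1643 counts in tumours 1 and 2 against 45 and 50 in the double heterozygous and wild type normal livers (log2 fold change 4.32, SE 0.72, edgeR adjusted p = 0.0462). The adjusted p of the others lay between 0.0182 and 0.0494. In this list the median log2 ratio of tumour 1 over tumour 2 was -0.07, with 12 of 21 lower in tumour 1.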

How the data were processed

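Sequencing covered 2 liver tumours and 2 normal livers. The labels' protocols name TRIZOL for total RNA and an Illumina TruSeq kit for the libraries. The submitters' processing notes list, with no role or order, mm9 as the build, TopHat2 2.0.10, HTSeq, FastQC, Trimmomatic and DESeq2. Strand use is not given in the sources used here. Each deposited table holds unnormalized read counts by gene symbol. Another 5 lines per table name no gene and were left out. Alignments that were not unique made up 45.59% and 42.33% of all counts, these lines included, in tumours 1 and 2. Their share was 51.55% in the double heterozygous and 30.69% in the wild type normal liver, the highest and lowest of all libraries. Reads outside genes made up 13.6% to 31.5%. Loss of alignments that were not unique can lower genes with close copies.

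Both tumours were tested against 1 normal library, the rounded mean of the normal tables, with edgeR 4.0.16 in R 4.3.3. Counts were scaled by TMM, filtered with filterByExpr at 10 counts and fitted with glmQLFit, and p-values from glmQLFTest were adjusted by Benjamini-Hochberg over all genes. With 1 residual degree of freedom, the spread comes from the tumours and is taken to hold for normal liver too. The SE is the absolute log2 fold change over the square root of F. DESeq2 1.42.0, other scalings, filters and libraries were alternatives. Ratios of single libraries used a prior count of 2. The fit was tested on simulated data. Exon lengths and shared 31-base words came from GENCODE M21 (GRCm38, 1 word in 16 sampled); 89.3% of symbols matched, and above 10% shared a gene is called one with shared sequence. Motifs not given with the results were also sought on both strands. The GC box GGGCGG occurred for 19 of 28 members and, among these, 12 of 13 sterol members. This compares with 35.4% of all genes with a window and 62.4% of those also tested. The variant sterol element CACCCCAC occurred for 2 members, against 2.98% of genes and 3.51% of those also tested. The TATA box letters, TATAAA, occurred for 1 member, against 14.3% of genes and 8.89% of those also tested. The nuclear receptor direct repeats DR4 and DR1 and a tandem E-box occurred for 0 members, against 0.0148%, 0.0407% and 0% of genes.

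The members and lists were chosen with earlier results of these data known. Full values were given for every member past the threshold and for a list of rate-limiting enzymes and regulators. The other members were given by short values. From each list of related genes, at most 8 genes called lower were named, by smallest p, besides the 1 called higher. Markers not printed with the results were 6 of bile duct, 8 of adipocytes and 6 of endothelium. The bile duct markers summed to 2474 and 2115 CPM in tumours 1 and 2 against 42.8 CPM in normal liver, and 3 were called higher. Krt7, Krt19, Spp1 and Sox9 had more counts in both tumours than in either normal liver. Epcam had 356 and 4 counts in tumours 1 and 2, against 46 and 48 in the double heterozygous and wild type normal livers. For Cftr these were 466 and 7 against 15 and 16. The adipocyte markers summed to 7.34 and 6.49 against 23.8 CPM, and those of endothelium to 0.539 and 1.29 against 255 CPM. The 10 T cell markers summed to 2.96 and 1.18 against 17.8 CPM.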

Additional observations from a re-analysis of the deposited data

How the results depend on the processing

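Members called lower numbered 7 in the fit reported (5.19% of all genes tested), 20 with both normal tables as separate libraries (23.4% of all genes), 13 with no filter on low counts (7.47%), 4 with no scaling factor (3.26%) and 15 with DESeq2 (1721 of all genes, against 751 in the fit reported). The others that kept both tumours gave 6 or 7; Scd2 was the member called higher in each of these. Since the normal tables share counts, separate use of them understates the spread. Passing in such fits, which the alternatives counted below include, adds no independent support. With separate normal tables and 1 tumour left out, 23 to 28 members were lower and 1 to 3 higher, where 36.5% to 37.5% of all genes tested were lower and 38% to 40% higher. Acacb, Thrsp, Dgat2 and Scd2 passed in all 11 alternatives with a test and Scd1 in all 10 that held it; Gpam, Mlxipl and Dhcr7 did not, as given with their values. No scaling factor moved the median of all genes from 0.19 to 1.56, a shift of 1.37, upper quartile scaling one of 0.23. Among members not called in the fit reported, signs turned with no scaling factor for Acly (1.15), Fasn (0.46), Me1 (1.21), Srebf1 (0.57), Pnpla3 (0.69), Plin2 (0.07), Mvk (0.50), Pmvk (0.25), Sqle (0.21) and Srebf2 (1.38), each below the median of all genes on that scale; with upper quartile scaling for Acly (0.00), Me1 (0.08) and Srebf2 (0.21); for Me1 without the wild type normal table (0.37) and with separate normal tables without tumour 2 (0.21); and for Srebf2 without the double heterozygous normal table (0.03), with no filter (0.06) and with separate normal tables without tumour 1 (0.54). In that last fit Srebf2 was called higher (edgeR adjusted p = 0.0111), and without tumour 2 it was called lower (-0.83, adjusted p = 0.00545). With 1 tumour left out and the averaged normal library, values with no test ran from -0.57 to 0.15 for Me1, -0.86 to 0.51 for Srebf2, -3.59 to -0.35 for Sqle, -4.49 to -1.18 for Idi1, -6.31 to -3.71 for Insig1, -5.18 to -3.12 for Cidec, -12.46 to -12.13 for Thrsp and -15.73 to -9.37 for Mlxipl. Where the cause of a change is not in the setting itself, the cause was not tested. No paired analysis was possible because the normal tables carry no replicate numbers shared with the tumours. Ratios per length moved by up to 1.64-fold with the longest transcript in place of exon union. Depth limits Acacb, Mlxipl, Thrsp, Pnpla3, Cidec and Idi1, which had under 20 counts in at least 1 tumour, and Hmgcs1, listed at 0.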
